A study of Mus musculus with 30 samples.

Results

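Cultured HL-1 cells treated with FK866 were compared with untreated HL-1 cells, gene by gene, from counts of RNA sequencing reads. The comparison rests on 6 of the 30 libraries of the series, chosen by their labels: untreated replicates 1 to 3 (labelled Ctrl) and FK866 replicates 1 to 3 (labelled FK). HL-1 is a mouse line labelled as cardiomyocytes, which the study's methods trace to an atrial tumour of an adult female C57BL/6J mouse, and the methods describe 1 culture medium, with norepinephrine, for the line. The other HL-1 libraries, 3 with FK866 and nicotinamide riboside (NR) and 3 with FK866, NR and the SIRT1 inhibitor Ex527, entered the model so that the spread was estimated over 12 libraries. Replicates were separate wells of a single cell line, so the p-values measure the spread between wells.

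FK866 blocks NAMPT, the enzyme that turns nicotinamide back into nicotinamide mononucleotide in the salvage route to NAD+, and so lowers cellular NAD+. NAD+ carries electrons in glycolysis and respiration and is also consumed by sirtuins, which remove acyl groups from proteins, by PARPs, which attach ADP-ribose, and by glycohydrolases such as CD38. NR reaches NAD+ through the NMRK kinases and does not need NAMPT. Because SIRT1 acts on clock proteins and the clock in turn drives Nampt, NAD+ and the circadian clock are linked in many tissues, the heart included.

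The untreated libraries held 25511707, 29011104 and 25546881 counts and the FK866 libraries 22104402, 22793001 and 24994736. Over the 11562 tested genes with a mean normalized count of at least 50, the median coefficient of variation between replicates was 7.32% in untreated cells and 8.08% with FK866. In a principal component analysis of the 12 libraries the second component (21.8% of the variance) separated FK866 from untreated cells, with scores from -28.3 to -24.5 against 18.9 to 25.8. The first component (26.2%) spread libraries within groups, from -35.9 to -6.7 in untreated cells and from -26.9 to 5.11 with FK866. The share of counts in genes under 1000 bases also varied within groups, with 3.22%, 3.32% and 3.65% in untreated replicates 1 to 3 and 3.25%, 3.51% and 2.94% in FK866 replicates 1 to 3.

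A library outside the comparison stood apart. In replicate 1 of FK866 plus NR, 379 genes with at least 30 normalized counts exceeded every other library more than 10-fold, against 0 or 1 gene in each of the other 11 libraries. They were led by genes known from neural tissue, such as Snap25, a synaptic protein named after its values were seen, with 679 normalized counts there and 0 in the others. Without that library the FK866 comparison called 698 genes in place of the 678 given below, and 667 were shared.

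The defining transcripts of heart muscle were nearly absent from all 6 libraries, which goes against the label. Of 15 cardiomyocyte markers, 13 stayed under 1 FPKM (fragments per kilobase of gene, scaled to the fragments counted in the library) in every library, and 4 of them (Actc1, Actn2, Tbx5 and Csrp3) had no read at all. Myh6, the atrial myosin heavy chain, had 10 reads in the 6 libraries together, Ryr2, the calcium release channel, 3 and Nppa, the atrial natriuretic peptide, 1. Gata4, a transcription factor of heart and other tissues, was the exception, with 26.9, 27.8 and 29.6 FPKM in untreated and 20.6, 21.2 and 21.4 FPKM in FK866 replicates 1 to 3. It made up nearly all of the summed level of the markers, which averaged 29.1 FPKM in untreated cells and 0.964 FPKM without Gata4.

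Abundant transcripts of untreated cells, chosen after their values were seen, were instead Krt19 (a simple epithelial keratin, 483 FPKM), Upk3b (a uroplakin, 439.9 FPKM), Msln (mesothelin, 126 FPKM) and Wt1 (a transcription factor of the developing kidney and mesothelium, 99.9 FPKM). The 3 highest FPKM of all tested genes were those of Gm23935 (7168), Lgals1, encoding galectin-1 (3969), and mt-Nd1, a mitochondrial subunit of complex I (3650). Gm23935 is annotated as a microRNA at bases 11144125 to 11144181 of chromosome 16 and overlaps Zc3h7a. FPKM divides by that short length, and its mean of 10779 normalized counts in untreated cells was below the 94518 of Lgals1. Of the 10 fibroblast markers 7 were tested, with Col3a1 the most abundant (313 FPKM) and 4 under 1 FPKM in every library. Markers of endothelium, macrophages and skeletal muscle summed to 1.07, 9.12 and 2.01 FPKM in untreated cells, and Cd68 alone gave 8.49 of the macrophage sum. Smooth muscle markers summed to 25.6 FPKM, led by Smtn (14.6 FPKM), and 6 of the 8 stayed under 1 FPKM. The cells are therefore called by the name of the line only.

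**Figure D1:**
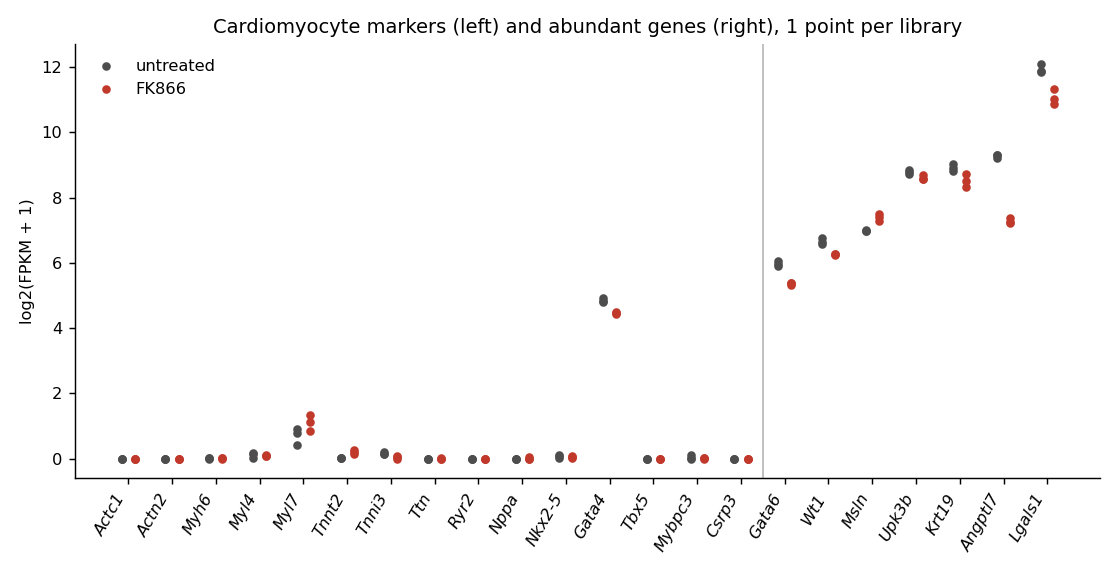
Levels, as log2(FPKM + 1), of 15 cardiomyocyte markers and of 7 other genes (Gata6, Wt1, Msln, Upk3b, Krt19, Angptl7 and Lgals1), with 1 point per library for 3 untreated and 3 FK866 libraries. Among the markers Gata4 lies between 20.6 and 29.6 FPKM and Myl7 reaches 1.51 FPKM, while the other 13 stay under 1 FPKM.

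Of the 54532 genes listed, 14760 had enough reads to be tested with edgeR's quasi-likelihood test, and 678 of them (4.59%) were called, at an adjusted p under 0.01 (Benjamini-Hochberg) and a change of more than 1.5-fold. With FK866 309 genes rose (2.09%) and 369 fell (2.50%), and 592 of the called genes were protein-coding. Of the called genes 23 passed the filter on low counts only through the group in which they were high, 20 that rose and 3 that fell. Most changes were moderate. The median log2 fold change was 0.839 among genes that rose and -0.79 among those that fell, and 119 genes rose and 108 fell by more than 2-fold. Untreated and FK866 libraries did not overlap for 677 of the called genes, nor for 36.6% of all genes tested. Genes that rose had a median level of 1.83 FPKM over the 6 libraries, those that fell 4.93 FPKM and all genes tested 5.21 FPKM. At an adjusted p under 0.01 and any fold, 914 genes (6.19%) were higher and 1133 (7.68%) lower with FK866. In bulk RNA, fewer cells of a kind and less RNA per cell cannot be told apart.

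Among called protein-coding genes with a mean of at least 50 normalized counts the largest rise was that of Rsad2 (viperin, an antiviral enzyme of the interferon response), on chromosome 12 from 26442746 to 26456452 in GRCm38. It had 65.7, 62.3 and 57.6 counts in untreated and 350.3, 308 and 351 in FK866 replicates 1 to 3, after normalization by edgeR's TMM method. Every FK866 library lay far above every untreated one, a 5.43-fold rise (log2 fold change 2.44, SE 0.14, adjusted p = 3.18e-08, edgeR). Its neighbour Cmpk2, a mitochondrial nucleotide kinase whose start lies 12.8 kb away, rose from 21.6 ± 3.04 (SD, n = 3) to 112 ± 12.3 normalized counts (adjusted p = 2.65e-05, edgeR). Serpinb9b, a serine protease inhibitor, rose 3.42-fold and Atf3, a stress-induced transcription factor, 3.24-fold. The other genes among the 10 largest rises were 9930111J21Rik1 (3.36-fold), Dusp8 (a MAP kinase phosphatase, 2.93-fold), Olfr1033 (an olfactory receptor gene, 2.9-fold), Clic5 (of the chloride intracellular channel family, 2.89-fold), Ifit1 (2.84-fold) and Cfap157 (a cilium-associated protein, 2.82-fold). Of these 9930111J21Rik1, which overlaps 3 other gene models, lost its call without untreated replicate 2 (log2 fold change 1.54, adjusted p = 0.0102, edgeR).

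Angptl7, a secreted angiopoietin-like protein at 617 FPKM in untreated cells, was among the largest falls. It had 34080, 35659 and 35612 normalized counts in untreated and 8791, 8414 and 9386 in FK866 replicates 1 to 3, without overlap, a log2 fold change of -1.99 (SE 0.09, adjusted p = 3.55e-09, edgeR). In GRCm38 it lies on chromosome 4 from 148495183 to 148500460 and overlaps Mtor. Stra6, the cellular receptor for the carrier of vitamin A, fell from 175 ± 22.5 (SD, n = 3) to 34.8 ± 10.96 normalized counts, and Krt9, a keratin, from 86.6 ± 19.1 to 17.98 ± 9.42. Smtnl2 (a smoothelin-like protein), Ccr7 (a chemokine receptor), Ccnjl (a cyclin-like protein), Gabra3 (a GABA receptor subunit), Dact3 (a WNT pathway antagonist) and Ramp2 (a partner of the adrenomedullin receptor) fell by log2 fold changes between -1.83 and -1.48.

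The nominally largest fall, that of mt-Atp8, a subunit of ATP synthase, depended for its size on a single library. It had 9408, 588 and 737 normalized counts in untreated and 136, 264 and 199 in FK866 replicates 1 to 3. The log2 fold change of mt-Atp8 was -4.16 with untreated replicate 1 and -1.73 without it, where the fall was still called (adjusted p = 0.00216, edgeR). The call was lost without FK866 replicate 1 (adjusted p = 0.0188, edgeR) and in a fit of the 6 libraries alone (adjusted p = 0.0229, edgeR). The gene shares bases with mt-Atp6, so its reads are uncertain.

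The smallest adjusted p of the comparison (3.55e-09, edgeR) was shared by Angptl7, Tgfb2 and a pair of genes named after their values were seen, Ccdc80 and Slc6a8. Ccdc80, a secreted matrix protein, fell from 14604 ± 527 (SD, n = 3) to 5535 ± 301 normalized counts. Slc6a8, the creatine transporter, rose from 932 ± 30.3 to 2356 ± 116. Lgals1 fell as well, from 94518 ± 8831 to 51898 ± 8292 normalized counts (log2 fold change -0.86, adjusted p = 2.13e-05, edgeR).

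**Figure D2:**
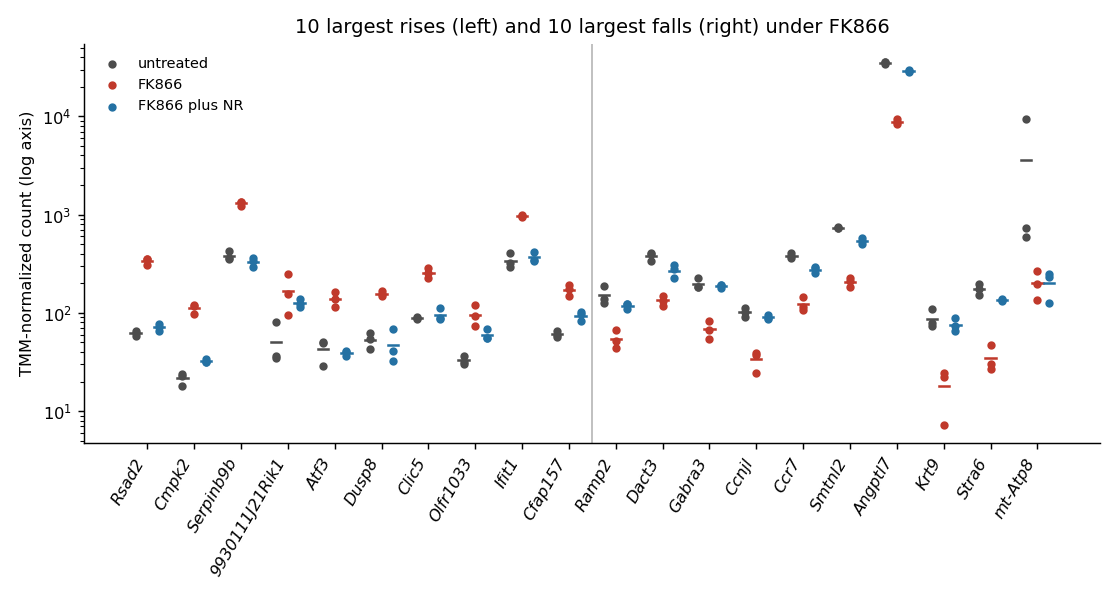
TMM-normalized counts (log axis) of the 10 largest rises and 10 largest falls by the naming rule, with 1 point per library and a bar at the mean of 3 libraries, in untreated, FK866 and FK866 plus NR cells. For Rsad2 the FK866 libraries lie between 308 and 351 and the untreated ones between 57.6 and 65.7, while the untreated points of mt-Atp8 range from 588 to 9408.

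Interferon-stimulated genes, which cells switch on when they sense foreign or misplaced nucleic acid or receive interferon, had the highest share of risen members among the 32 gene lists. Of 35 tested, 10 rose and 0 fell (28.6% called, against 4.59% of all genes). At any fold 13 were higher and 0 lower at an adjusted p under 0.01 (edgeR), where all genes had 6.19% and 7.68%. The median log2 fold change of the list was 0.40, against 0.016 over all genes tested. Besides Rsad2 the risen members were Ifit1 and Ifit3, which bind RNA, Gbp3 and Oasl2, of antiviral gene families, Mx2, annotated as a polymorphic pseudogene, Isg15, a ubiquitin-like modifier, Isg20, an RNA exonuclease, Ifih1, the RNA sensor MDA5, and Xaf1, a pro-apoptotic factor. Ifit1 had 295, 319.7 and 405 normalized counts in untreated and 937, 979 and 982 in FK866 replicates 1 to 3. Oasl2 had 753, 791 and 769 against 1601, 1700 and 1602, and Ifih1 433, 454 and 492 against 776, 763 and 808. For all 3 genes the lowest FK866 library was above the highest untreated one.

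The other 25 members were not called. Irf9, Stat2 and Oasl1 passed the p threshold with log2 fold changes of 0.40, 0.43 and 0.46, under 1.5-fold, while Ifit3b and Ifi44 had larger values of 1.84 and 1.44 that missed it (adjusted p = 0.0128, edgeR and adjusted p = 0.0289, edgeR). Irf7, a factor that drives interferon genes, had a log2 fold change of 0.27 (adjusted p = 0.0993, edgeR). B2m and the class I genes H2-K1 and H2-D1 had log2 fold changes between -0.17 and 0.06, none of which passed the test. Ifit3 lost its call without untreated replicate 1 or 3 or FK866 replicate 3 (log2 fold change 1.07 to 1.14, adjusted p 0.011 to 0.0141, edgeR), and it has a close copy, Ifit3b, so the reads of the pair are uncertain. Ccl5 and Cxcl10, chemokines that interferon can also induce, rose by log2 fold changes of 1.47 and 0.64.

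**Figure D3:**
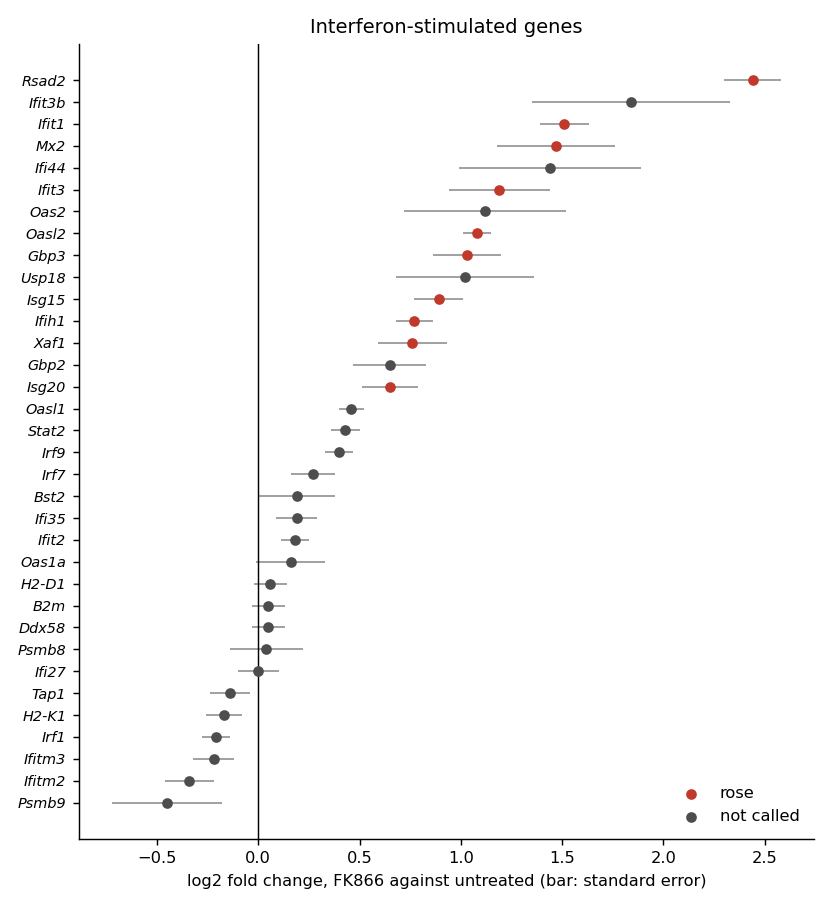
Log2 fold change of FK866 against untreated for 34 of the 35 tested interferon-stimulated genes, with bars of 1 standard error, in red where the gene rose at an adjusted p under 0.01 and more than 1.5-fold. Rsad2 is at 2.44, the 10 risen genes run down to 0.65 for Isg20, and Psmb9 is lowest at -0.45.

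Promoters of several risen interferon genes hold the core of the interferon-stimulated response element, the kind of site through which interferon-activated factors bind. The letters searched were GAAA, 2 bases of any kind and GAAA again, on either strand, so that a match on the other strand reads TTTC, 2 bases and TTTC, a motif chosen after the rise of these genes had been seen. Of the 10 list members that rose, 9 had a RefSeq promoter of GRCm38.p6, and 5 of these held the core in the 250 bases before the start. In the window from 250 bases before to 50 after the start, 3.09% of the promoters of 10228 tested genes held it, 7.37% of 217 promoters of genes that rose and 3.01% of 266 promoters of genes that fell. The 250 bases before the start are printed 5′ to 3′ for 4 members that hold the core and for Cmpk2, the neighbour of Rsad2, which does not, with every match in capitals.
Rsad2 (chr12:26456453-26456702, minus strand): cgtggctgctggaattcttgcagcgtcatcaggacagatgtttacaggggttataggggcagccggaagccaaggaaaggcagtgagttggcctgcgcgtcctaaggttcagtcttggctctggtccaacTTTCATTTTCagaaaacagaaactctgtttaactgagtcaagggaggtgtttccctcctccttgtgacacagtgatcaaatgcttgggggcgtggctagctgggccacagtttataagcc
Ifit1 (chr19:34640639-34640888, plus strand): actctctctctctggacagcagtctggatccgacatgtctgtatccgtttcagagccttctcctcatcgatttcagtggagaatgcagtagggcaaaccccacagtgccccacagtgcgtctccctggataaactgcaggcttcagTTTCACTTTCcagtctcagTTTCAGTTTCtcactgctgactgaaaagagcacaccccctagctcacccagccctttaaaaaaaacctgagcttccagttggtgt
Ifit3 (chr19:34583279-34583528, plus strand): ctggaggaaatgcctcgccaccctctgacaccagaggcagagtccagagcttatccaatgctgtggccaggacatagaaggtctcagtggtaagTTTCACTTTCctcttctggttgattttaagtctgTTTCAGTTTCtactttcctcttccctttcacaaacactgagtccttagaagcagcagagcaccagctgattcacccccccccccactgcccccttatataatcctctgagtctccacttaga
Isg15 (chr4:156200819-156201068, minus strand): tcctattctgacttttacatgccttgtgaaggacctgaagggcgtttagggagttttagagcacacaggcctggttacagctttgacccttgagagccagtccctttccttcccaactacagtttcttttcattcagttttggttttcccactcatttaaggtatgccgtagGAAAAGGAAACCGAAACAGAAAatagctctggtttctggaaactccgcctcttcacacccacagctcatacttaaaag
Cmpk2 (chr12:26468965-26469214, plus strand): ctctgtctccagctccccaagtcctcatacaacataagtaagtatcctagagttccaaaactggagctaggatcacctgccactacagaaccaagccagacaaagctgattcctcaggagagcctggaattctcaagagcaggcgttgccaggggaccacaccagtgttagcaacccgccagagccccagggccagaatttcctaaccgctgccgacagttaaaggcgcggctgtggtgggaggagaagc
The match in Rsad2 begins 120 bases before the start, and Isg15 holds 3 overlapping matches that begin 78, 72 and 66 bases before it. For Cmpk2 these letters are not in this window.

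Of the other motifs searched, the E-box CACGTG, a site of CLOCK and other basic helix-loop-helix factors, was in 16.6% of promoters of genes that rose, 5.26% of those that fell and 10.1% of all. The AP-1 site TGANTCA was in 9.22%, 4.14% and 4.88%, in the same order. The cyclic AMP element TGACGTCA was in 4.15%, 1.13% and 3.31%, the ATF4 composite element TGATGNAA in 3.69%, 2.26% and 2.22%, and the NF-Y site CCAAT in 33.2%, 40.6% and 39.2%. All were searched on both strands, and no match was tested as a binding site. The E-box stood in the promoters of Per1, Sirt1, Klf4, Arrdc4, Gadd45b and Mcoln1 among the named genes that rose and of Tgfb2, Wnt9a and Bnip3 among those that fell.

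Of 13 tested genes of NAD+ synthesis, 0 rose and 1 fell (7.69% called, against 4.59% of all genes). The log2 fold change was below 0 for 12 of the 13, against 47.9% over all genes tested, and no test was made of these signs. The median was -0.20, against 0.016 over all genes tested. Nampt, the target of FK866, had 4421, 4215 and 4238 normalized counts in untreated and 3799, 3577 and 3809 in FK866 replicates 1 to 3. The groups did not overlap, but the difference was small and missed the threshold (log2 fold change -0.20, SE 0.06, adjusted p = 0.0213, edgeR). Nmnat1 and Nmnat3, which make NAD+ from the mononucleotide in nucleus and mitochondria, had log2 fold changes of -0.14 (adjusted p = 0.283, edgeR) and -0.48 (adjusted p = 0.00953, edgeR, under 1.5-fold). Nmrk1, the kinase that phosphorylates NR, had 385 ± 10.7 (SD, n = 3) normalized counts untreated and 353 ± 27.4 with FK866 (adjusted p = 0.424, edgeR), and Nmrk2, its muscle counterpart, had no read in the 6 libraries. Naprt, which feeds nicotinic acid into NAD+, fell from 145 ± 23.9 to 88.4 ± 1.86 (adjusted p = 0.00434, edgeR). That call was lost without untreated replicate 2 or 3 or any FK866 replicate (log2 fold change -0.73 to -0.59, adjusted p 0.0103 to 0.0275, edgeR), which left 0 calls in the list.

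Of 33 tested genes that use NAD+ or break down its precursors, 2 rose and 2 fell (12.1% called, against 4.59% of all genes). Sirt1, the deacetylase that Ex527 inhibits, had 611, 591 and 582 normalized counts in untreated and 959, 849 and 1086 in FK866 replicates 1 to 3. All FK866 libraries were higher, a 1.62-fold rise (SE 0.10 on the log2 scale, adjusted p = 0.000119, edgeR). Parp14, a PARP of the interferon response, rose by a log2 fold change of 1.17 (adjusted p = 0.000147, edgeR). Nt5e (CD73), which splits extracellular nucleotides, fell from 441 ± 43.5 (SD, n = 3) to 219.7 ± 14.6 normalized counts. Cd38, a glycohydrolase of NAD+, fell from 5995 ± 47.01 to 3939 ± 169.6 (log2 fold change -0.61, adjusted p = 1.9e-06, edgeR), and the fall was just under 1.5-fold without FK866 replicate 1 (-0.57). Parp1, a major PARP of DNA repair, had a log2 fold change of -0.09 (adjusted p = 0.272, edgeR), and Sirt1 was the one sirtuin called of 7 tested.

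**Figure D4:**
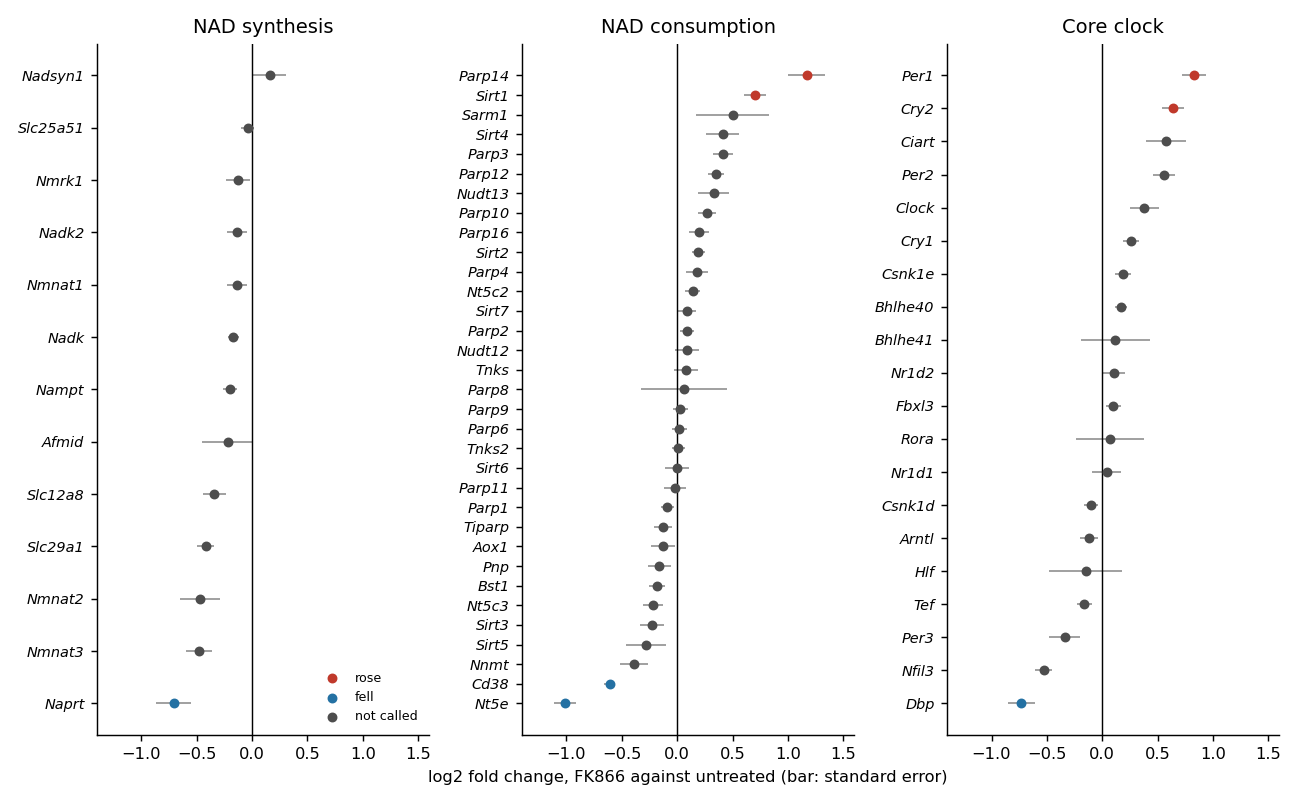
Log2 fold change of FK866 against untreated, with bars of 1 standard error, for tested genes of NAD+ synthesis (13), NAD+ consumption (33) and the core clock (20 of 21), coloured where the adjusted p was under 0.01 and the change over 1.5-fold. Parp14 (1.17), Sirt1 (0.70), Per1 (0.83) and Cry2 (0.64) rose, and Naprt (-0.71), Nt5e (-1.01), Cd38 (-0.61) and Dbp (-0.73) fell.

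Of 21 core clock genes tested, 3 rose and 1 fell (19% called, against 4.59% of all genes). Per1, a repressor that also answers to acute stimuli, had 510, 548 and 479 normalized counts in untreated and 879, 984 and 881 in FK866 replicates 1 to 3, without overlap (1.78-fold, adjusted p = 5.17e-05, edgeR). Cry2, another repressor, rose from 401 ± 13.8 (SD, n = 3) to 626 ± 37.8 normalized counts (adjusted p = 0.000401, edgeR), and with the share of short genes as a covariate the rise was just under 1.5-fold (log2 fold change 0.57). Per2, a further repressor, had 673, 569 and 563 against 861, 806 and 998 normalized counts, again without overlap. That change of 1.48-fold passed the p threshold (adjusted p = 0.000732, edgeR) but not the fold, and was called without untreated replicate 1, FK866 replicate 1 or FK866 replicate 2 (log2 fold change 0.59 to 0.65). Dbp, an output factor driven by CLOCK and BMAL1, fell from 234 ± 25.9 to 141 ± 2.83 (adjusted p = 0.000458, edgeR).

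The activators were not called: Arntl (BMAL1) had a log2 fold change of -0.12 (adjusted p = 0.299, edgeR) and Clock one of 0.38 (adjusted p = 0.0462, edgeR). Neither were Cry1 (0.26, adjusted p = 0.014, edgeR), Nr1d2 (0.11, adjusted p = 0.474, edgeR) and Nr1d1 (0.04, adjusted p = 0.842, edgeR), the last of which turned to -0.03 without untreated replicate 3. The labels give no collection time for these libraries, so the values are levels and carry no rhythm.

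WNT signaling passes patterning and growth cues between cells. Of its 26 tested genes 7 fell and 0 rose (26.9% called, against 4.59% of all genes). At any fold 11 were lower and 1 higher, where all genes had 7.68% and 6.19%. The ligands Wnt11, Wnt2, Wnt4, Wnt9a and Wnt5a fell by log2 fold changes of -1.31 to -0.91, the receptor Fzd2 by 0.61 on the log2 scale and Lgr6, an R-spondin receptor, by 0.97. Wnt4, at 53.4 FPKM in untreated cells, had 5496, 5853 and 6376 normalized counts in untreated and 2992, 3040 and 2570 in FK866 replicates 1 to 3. Wnt11 had 711, 789 and 810.1 against 308, 339 and 282. For both ligands every FK866 library lay below every untreated one.

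Of 49 tested collagens, laminins, integrins and related genes 10 fell and 2 rose (24.5% called, against 4.59% of all genes). The median log2 fold change was -0.15, against 0.016 over all genes tested. Fn1, fibronectin, had 126539, 107640 and 94833 normalized counts in untreated and 49533, 44271 and 67256 in FK866 replicates 1 to 3, a 2.04-fold fall without overlap (adjusted p = 8.47e-05, edgeR). Col1a2, a chain of collagen I, fell from 788 ± 44.2 (SD, n = 3) to 285 ± 5.33 normalized counts, while Col1a1, the other chain, had a log2 fold change of -0.37, under the fold limit. Col3a1, Col6a1, Col6a2, Col8a2, Col18a1, the laminin chain Lama4, Spp1 (osteopontin) and Sdc4 (syndecan-4) fell by log2 fold changes of -1.07 to -0.61. Itgb7, an integrin chain known from leukocytes, rose by 1.21 on that scale. Of 7 tested fibroblast markers 3 fell, Col1a2, Col3a1 and Pdgfra (42.9% called, against 4.59% of all genes). The summed level of the markers was 557, 541 and 521 FPKM in untreated and 376, 363 and 360 FPKM in FK866 replicates 1 to 3. Within it Col3a1 alone averaged 313 FPKM in untreated cells and 196 FPKM with FK866. The part of the markers in the fall of matrix genes was not tested, and the lists share members, Col1a2 and Col3a1 among them.

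Among 39 tested genes of TGF-beta signaling and matrix remodeling 4 fell and 1 rose (12.8% called, against 4.59% of all genes). The ligand Tgfb2 had 6634, 6711 and 7010 normalized counts in untreated and 2967, 2875 and 3008 in FK866 replicates 1 to 3, without overlap, and the ligand Tgfb3 fell by 0.83 on the log2 scale. Loxl3, a lysyl oxidase that cross-links matrix, fell by 0.80, and Cyr61, a matrix-bound target of YAP, rose by 0.98. The fourth fall, of the inhibitor Smad6 (-0.60), was just under 1.5-fold without untreated replicate 2 or FK866 replicate 1 (-0.58 to -0.57). Without untreated replicate 3 the list held 8 called genes in place of 5.

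In the NF-kB and cytokine list 2 genes rose (Ccl5 and Cxcl10) and 3 fell among 23 tested (21.7% called, against 4.59% of all genes). Cxcl12, a chemokine that stromal cells make, fell from 15014 ± 489 (SD, n = 3) to 7092 ± 401 normalized counts, and Ptgs1, a cyclooxygenase, from 14902 ± 574 to 9168 ± 415. The third fall, of the cytokine Il34 (-1.50), was lost without any untreated replicate or FK866 replicate 1 or 2 (adjusted p 0.0139 to 0.0326, edgeR) and in a fit of the 6 libraries alone (adjusted p = 0.0224, edgeR). Of 34 growth factors and receptors 5 rose and 2 fell (20.6% called, against 4.59% of all genes). Without untreated replicate 2 the list held 4 called genes in place of 7. The ligand Pdgfb rose by 0.81 on the log2 scale, Fgf18 by 0.63 and the receptor Fgfr1 by 0.62, whereas the receptor Pdgfra fell by 0.96 and Igfbp4, which binds insulin-like growth factors, by 0.97. The rises of Pdgfc (0.75) and of the receptor Erbb3 (0.79) were lost without any of several libraries, untreated replicate 2 and FK866 replicate 3 for both, and untreated replicate 3 and FK866 replicate 1 for Erbb3 (adjusted p 0.0121 to 0.0178, edgeR).

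**Figure D5:**
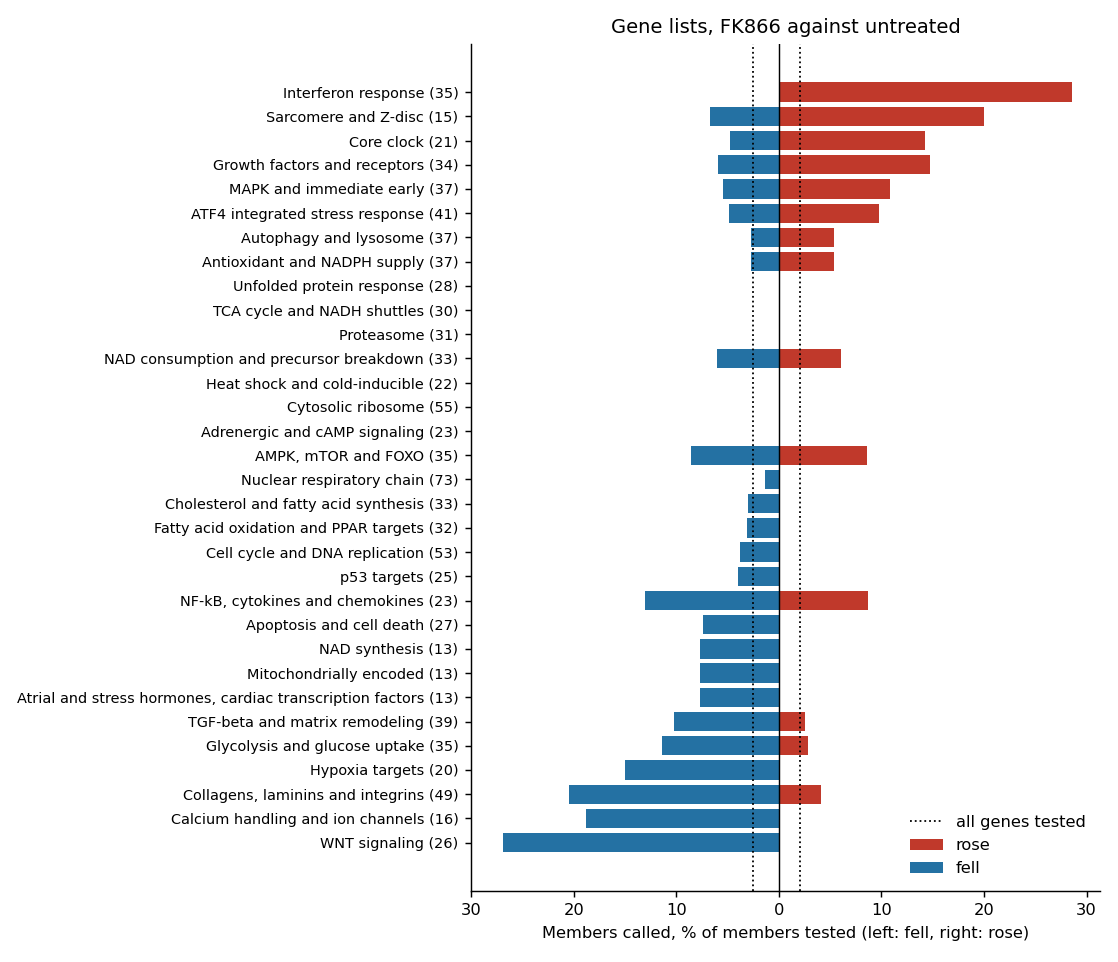
Share of tested members of 32 gene lists that rose (right, red) or fell (left, blue) with FK866, in percent, with the number tested in parentheses and dotted lines at the shares among all 14760 genes (2.09% and 2.50%). Interferon response reaches 28.6% on the right, WNT signaling 26.9% on the left, and 6 lists have no called member.

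Of 41 tested genes of the ATF4 response, which cells raise when amino acids or translation run short, 4 rose and 2 fell (14.6% called, against 4.59% of all genes). At any fold 15 were higher and 2 lower, where all genes had 6.19% and 7.68%. Of the log2 fold changes 6 were below 0, against 47.9% over all genes tested, and these signs were not tested. Atf3 had 49.02, 50.6 and 28.8 normalized counts in untreated and 115, 164 and 139 in FK866 replicates 1 to 3, without overlap. The factor Atf5 rose by 0.83 on the log2 scale and Trib3, a pseudokinase induced by stress, by 0.71. Slc7a11, the cystine transporter, rose by 0.80, a call that a fit of the 6 libraries alone did not make (adjusted p = 0.0113, edgeR). Atf4 itself had a log2 fold change of 0.24 (adjusted p = 0.0189, edgeR), Asns, asparagine synthetase, 0.40 (adjusted p = 7.34e-05, edgeR, under 1.5-fold) and Ddit3 (CHOP) 0.16 (adjusted p = 0.198, edgeR). Ddit4, an inhibitor of mTOR signaling, fell from 2036, 1855 and 1980 to 761, 991 and 775 normalized counts, and Pycr1 of proline synthesis fell by 0.75 on the log2 scale.

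A hypoxia list held targets of the factor HIF and the HIF subunit genes Hif1a and Epas1. Of 20 tested, 3 fell and 0 rose (15% called, against 4.59% of all genes). At any fold 9 were lower and 0 higher, where all genes had 7.68% and 6.19%. Hif1a (log2 fold change -0.33) and Epas1 (-0.55), both under 1.5-fold, were among those lower. The median log2 fold change was -0.38, against 0.016 over all genes tested, and no test was made of the list. Bnip3, a mitophagy receptor, fell from 1136 ± 16.5 (SD, n = 3) to 714 ± 89.8 normalized counts. Car12, a carbonic anhydrase, fell by 0.76 on the log2 scale, a call that a fit of the 6 libraries alone did not make (adjusted p = 0.0174, edgeR), and Egln3, a hydroxylase of HIF, by 0.59, with -0.54 without FK866 replicate 1. Without FK866 replicate 3 the list held 5 called genes. Vegfa, an angiogenic growth factor in that list, had a log2 fold change of -0.13 (adjusted p = 0.286, edgeR).

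Of 35 genes of glycolysis and glucose uptake 4 fell and 1 rose (14.3% called, against 4.59% of all genes). Aldoc, an aldolase, fell by 0.79 on the log2 scale and Ldhb, a lactate dehydrogenase chain, by 0.74, while Pygm, a glycogen phosphorylase, rose by 0.94. Gapdh, the glycolytic enzyme that reduces NAD+, fell from 1386 ± 133 (SD, n = 3) to 889 ± 45.6 normalized counts (adjusted p = 0.000175, edgeR), with a log2 fold change of -0.57 without untreated replicate 3. It stood at 12.7 FPKM in untreated cells, and since Gapdh has many near-identical copies in the mouse genome and the handling of shared reads is not given in the sources used here, its value is uncertain. The fall of the transporter Slc2a8 (-0.62) was lost without untreated replicate 2 or 3 or FK866 replicate 1 or 3 (adjusted p 0.0218 to 0.0246, edgeR).

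Immediate early and ERK-feedback genes respond fast to growth signals. Of 37 tested, 4 rose and 2 fell (16.2% called, against 4.59% of all genes). The transcription factor Klf4 had 702, 589.6 and 606 normalized counts in untreated and 1207, 1351 and 1329 in FK866 replicates 1 to 3, and Dusp8 54.2, 43.3 and 62.7 against 166, 148 and 154, both without overlap. Etv5, a transcription factor downstream of ERK, fell by 0.75 on the log2 scale. The rise of Egr1 (0.76) was lost without untreated replicate 2 or FK866 replicate 1 (adjusted p 0.0161 to 0.0233, edgeR). That of Nr4a3 (1.62) was lost without any untreated replicate or FK866 replicate 1 or 3 (adjusted p 0.0112 to 0.0299, edgeR).

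Nqo1, a quinone reductase under the antioxidant factor NRF2, rose from 948 ± 28.8 (SD, n = 3) to 1695 ± 50.1 normalized counts. Its antioxidant list had 2 rises and 1 fall among 37 tested (8.11% called, against 4.59% of all genes). At any fold 9 members were higher and 2 lower, where all genes had 6.19% and 7.68%. The fall, of the glutathione transferase Gsta3 (-0.60), was under 1.5-fold without untreated replicate 2 or 3 or FK866 replicate 3 (-0.58 to -0.48) and with the share of short genes as a covariate (-0.53). Of 35 genes of AMPK, mTOR and FOXO signaling 3 rose and 3 fell (17.1% called, against 4.59% of all genes). Arrdc4, an arrestin-domain protein, rose by 1.38 on the log2 scale and Gadd45b, a stress-response gene, by 1.03, and Sesn1, a sestrin that restrains mTOR signaling, and Ccng2, a cyclin under FOXO, fell by 1.06 and 0.89. The third rise, of the AMPK subunit Prkab2 (0.65), was lost without untreated replicate 2 or 3 or FK866 replicate 1 or 3 (0.57 to 0.60, adjusted p 0.0102 to 0.0206, edgeR) and in a fit of the 6 libraries alone (adjusted p = 0.0147, edgeR), and was under 1.5-fold with the share of short genes as a covariate (0.58). The autophagy and lysosome list had 2 rises and 1 fall among 37 (8.11% called, against 4.59% of all genes). Its rises, Ctsa (0.61) and Mcoln1 (0.60), lay close to the fold limit, and without untreated replicate 1 or FK866 replicate 2 the list held 1 called gene in place of 3.

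Of 36 sarcomere and Z-disc genes 15 had enough reads to be tested. Of these 3 rose and 1 fell (26.7% called, against 4.59% of all genes). One of the rises, of Tnnt2, was of a gene that passed the filter on low counts only through its FK866 libraries, so it had to be higher there to be tested, and the count of rises is no support for a change of the list. Ankrd1, a titin-binding protein also induced through YAP, had 1702, 1680 and 1970 normalized counts in untreated and 4154, 4225 and 4140 in FK866 replicates 1 to 3, a 2.34-fold rise without overlap (adjusted p = 3.47e-07, edgeR). Cryab, a small heat shock protein, rose by 0.62 on the log2 scale, with 0.53 to 0.58 without untreated replicate 2 or FK866 replicate 2. Tnnt2, cardiac troponin T, had 4, 5 and 4 reads in untreated and 18, 27 and 43 reads in FK866 libraries, so its level stayed at or below 0.215 FPKM. The fall of the myosin kinase Mylk3 (-0.79) was lost without FK866 replicate 1 (adjusted p = 0.0137, edgeR). Nppb, a natriuretic peptide, had 1.04, 4.51 and 2.06 against 9.31, 7.84 and 9.26 normalized counts and was too scarce to be tested.

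Gata6, a transcription factor that partners Gata4, fell from 9128 ± 459.8 (SD, n = 3) to 5939 ± 128 normalized counts (adjusted p = 1.71e-06, edgeR). It was the single call among 13 tested cardiac factors and hormones (7.69%, against 4.59% of all genes). At any fold 5 were lower and 0 higher, where all genes had 7.68% and 6.19%. Besides Gata6 these were Gata4 (-0.41), Hand2 (-0.54), Nr2f1 (-0.54) and Nr2f2 (-0.28), under 1.5-fold. Without untreated replicate 1 or FK866 replicate 2 that list held 2 to 3 called genes. Of 16 tested channel and calcium genes 3 fell and 0 rose (18.8% called, against 4.59% of all genes). The falls were those of Kcnj8, a potassium channel gated by ATP (-1.91), Cacna1g, a T-type calcium channel (-1.17), and Kcnh2, a potassium channel (-0.88).

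Of 53 tested genes of the cell cycle and DNA replication 0 rose and 2 fell (3.77% called, against 4.59% of all genes). At any fold 0 were higher and 9 lower, where all genes had 6.19% and 7.68%. The called genes were Cdkn2a and Cdkn2b, which encode cell cycle inhibitors. The others lower at any fold were Tk1 (log2 fold change -0.53), Rrm2 (-0.32), Bub1b (-0.33), Cdk4 (-0.32), Ccnd3 (-0.35), Gins2 (-0.39) and Cdkn2c (-0.41), all under 1.5-fold. Cdkn2a fell from 9344 ± 1010 (SD, n = 3) to 5200 ± 751 normalized counts, and Cdkn2b by 0.65 on the log2 scale, with -0.56 and 1 called gene in the list without FK866 replicate 3. Mki67, a marker of cycling cells, had 7518, 6499 and 4517 against 7874, 6744 and 9871 normalized counts, so the groups overlapped (adjusted p = 0.0742, edgeR). Top2a, needed in mitosis, had a log2 fold change of -0.04 (adjusted p = 0.765, edgeR), which turned to 0.04 without untreated replicate 1 and 0.03 without FK866 replicate 2. Among 25 p53 targets Sesn1 was the single call (4%, against 4.59% of all genes). At any fold 2 were higher and 3 lower, where all genes had 6.19% and 7.68%. Cdkn1a (p21) had a log2 fold change of -0.21 (adjusted p = 0.0254, edgeR).

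In 6 lists edgeR called 0 genes: the unfolded protein response (28 tested), the TCA cycle and NADH shuttles (30), adrenergic signaling (23), heat shock (22), the proteasome (31) and the cytosolic ribosome (55). At an unadjusted p under 0.05 they held 12, 8, 11, 8, 11 and 3 genes, in that order, against 5408 of all 14760. At an adjusted p under 0.01 (edgeR) and any fold, 2, 1, 2, 4, 0 and 0 were higher. In the same order 4, 2, 1, 2, 1 and 0 were lower, where all genes had 6.19% higher and 7.68% lower. DESeq2 called 1 heat shock gene and 0 in the other 5 lists. Leaving out FK866 replicate 3 gave 1 call each in the unfolded protein response, adrenergic and ribosomal lists, and leaving out untreated replicate 1 or FK866 replicate 2 gave 1 in the heat shock list.

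Of 73 nuclear genes of the respiratory chain 1 was called (1.37%, against 4.59% of all genes), Cox7a1, a subunit of cytochrome c oxidase. That call was lost without any untreated replicate or FK866 replicate 1 or 3 (adjusted p 0.0154 to 0.045, edgeR), in a fit of the 6 libraries alone (adjusted p = 0.0242, edgeR) and with DESeq2 on 12 libraries (adjusted p = 0.0112). Of their log2 fold changes 60 were below 0, against 47.9% over all genes tested and with no test of these signs (median -0.13). The share of counts in genes under 1000 bases also varied within groups, lowest at 2.94% in FK866 replicate 3. Its part in these signs was not tested. The 13 genes of the mitochondrial genome had a median of 0.25, and mt-Co1, another subunit of that oxidase, a log2 fold change of 0.36 (adjusted p = 0.221, edgeR). The mitochondrial share of all counts was 1.27%, 1.53% and 1.39% in untreated and 1.90%, 1.72% and 1.70% in FK866 replicates 1 to 3, higher in every FK866 library. With NR added to FK866 that share was 2.73%, 2.58% and 2.15%, and with NR and Ex527 it was 2.15%, 2.21% and 1.22%. The cause of these differences was not tested. Cholesterol and fatty acid synthesis (33 tested), fatty acid oxidation (32) and cell death (27) had 1, 1 and 2 called genes. These were 3.03%, 3.12% and 7.41% of the lists, in that order, against 4.59% of all genes. The called genes all fell: Fads2 (a fatty acid desaturase), Ucp2 (a mitochondrial carrier), and Bmf and Bnip3 of the BCL2 family. Without one library these lists held 2 (untreated replicate 2 or 3, FK866 replicate 1 or 3), 0 to 3 (any of the 6) and 1 (untreated replicate 1 or FK866 replicate 1).

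NR given with FK866 changed 710 genes against FK866 alone (4.81%), 412 upward (2.79%) and 298 downward (2.02%), and 584 without the library that stood apart. This comparison shares its FK866 libraries with the one above, so its values are only set side by side. Of the 10 largest rises under FK866, 8 were called lower with NR and 0 higher, and of the 10 largest falls 9 were called higher and 0 lower, with equal counts when that library was left out. All 10 risen interferon genes were called lower with NR. Rsad2 had 76.3, 65.03 and 71.96 normalized counts in FK866 plus NR replicates 1 to 3, near the untreated values of 65.7, 62.3 and 57.6, and Angptl7 had 28033, 29695 and 28829, nearer its untreated than its FK866 values. Per1, by contrast, had 809, 847 and 639, and its difference from FK866 alone was not called (log2 fold change -0.26, adjusted p = 0.0725, edgeR). Per2 had 945, 932 and 881 normalized counts with NR (0.05 against FK866, adjusted p = 0.748, edgeR), all above its highest untreated library. Sirt1 had 736, 723 and 712, between its untreated and FK866 values, a log2 fold change of -0.42 that passed the p threshold but not the fold (adjusted p = 0.00522, edgeR).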

How the data were processed

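Poly(A) RNA of 12 HL-1 cultures was sequenced. The authors deposited raw counts per gene and FPKM values (per kilobase of gene and scaled to the counted fragments). The submitters' processing notes name HISAT2, HISAT, TopHat2 and mm10; the counter and its strand setting are not given in the sources used here, and 46 of the 100 named called genes overlap another gene model. From the deposited counts, edgeR 4.0.16 (R 4.3.3) fitted all 12 libraries with TMM scaling, its default filter on low counts and a quasi-likelihood F-test, 3 libraries per group, with Benjamini-Hochberg adjustment over 14760 genes. DESeq2 1.42.0 and the alternatives in the closing section were run beside it. Deposited FPKM served for levels only. Tested on simulated counts for this comparison, 195, 197 and 200 of 200 genes changed 1.75-, 2- and 3-fold were called, with 0 false calls among 14554, 14559 and 14541 genes.

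Named genes were the 10 largest rises and falls (protein-coding, called, mean normalized count of at least 50, groups not overlapping), up to 5 called members of each list, a fixed panel and the most abundant genes; further list members and the genes marked as such were chosen after their values were seen. The members and lists were chosen with earlier results of these data known. Promoters came from RefSeq (GRCm38.p6), matched by gene for 10228 tested genes. A few list members are counted but not reported here by name. The heart libraries of the series were not used here.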

Additional observations from a re-analysis of the deposited data

How the results depend on the processing

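The count of genes called for FK866 against untreated cells was 678 and ranged from 531 (edgeR on the 6 libraries alone) to 738 (no filter on low counts) under the other settings, which were DESeq2 on 12 or 6 libraries, DESeq2's size factors in edgeR, protein-coding nuclear genes only, an average count over 5, the replicate number as a block and, added after seeing the data, the share of short genes as a covariate and leaving out the FK866 plus NR library that stood apart. Leaving out 1 library of the comparison gave 537 (without FK866 replicate 1) to 778 (without FK866 replicate 2), with 227 to 375 rises, 310 to 403 falls and 85 to 105 called members over all lists (100 with every library). Between 73.7% and 99.4% of the 678 genes were called again in each setting, and 0 of them changed sign in any of the 16. Of 100 named genes called, 72 kept their call throughout. Some uncalled genes changed sign. With the covariate Gm23935 went from 0.44 to -0.07, and it was called without FK866 replicate 2 (0.92, adjusted p = 0.00541, edgeR). Nr1d1 went to -0.01 with the covariate, and leaving out 1 library gave -0.03 to 0.09 for Nr1d1 (below 0 without untreated replicate 3) and -0.13 to 0.04 for Top2a (above 0 at 0.04 without untreated replicate 1 and 0.03 without FK866 replicate 2). The cause was not tested. For FK866 plus NR against FK866, 710 became 1166 with no filter on low counts, and 523 to 944 without 1 library. Same-numbered untreated and FK866 libraries did not deviate together (correlations 0.029, -0.076 and -0.292, against -0.242 to 0.299 for different numbers). With 3 wells per group this cannot settle whether wells of 1 number were prepared together. With the replicate block 638 genes were called, 627 of them shared (655 for NR against FK866). Among the named genes Cox7a1, Il34 and mt-Atp8 were not called with the block, and 9930111J21Rik1, Car12, Cox7a1, Il34, Mylk3, Naprt, Prkab2, Slc2a8, Slc7a11 and mt-Atp8 were not called by edgeR on the 6 libraries. Depth limits scarce genes most, and 10 of the 15 cardiomyocyte markers had too few reads to be tested.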
